A study of Mus musculus with 9 samples.

Results

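The normal diet erythroblasts, 3 of the 9 samples of the series, are described here across all genes the arrays named, with no comparison between diets. Members were taken by their labels: sorted bone marrow erythroblasts of wild-type C57BL/6J mice on normal diet, labelled female and called subset II, without a stated gate. Age, and whether a sample was 1 animal or a pool, are not given in the sources used here. The series as a whole is about mitophagy and gene expression in iron deficiency anemia, and its other 6 samples, from mice on a low iron diet, do not enter any value below. Per the labels, total RNA was amplified to aminoallyl RNA and labelled with Cy3 for single-colour arrays, and the design text calls the 3 samples biological replicates. Going by the names of the files, the 3 arrays lay on the same slide, so the spread between them holds no difference between slides.

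Erythroblasts are the nucleated precursors of red cells. They take up transferrin-bound iron through the transferrin receptor, build heme in and around the mitochondria, fill the cytoplasm with hemoglobin made of alpha and beta globin chains, divide a few more times, and then condense and expel the nucleus. The transcription factors Gata1, Tal1 and Klf1 switch on globin, heme and membrane genes in this lineage, and macrophages surround the maturing cells in the marrow and engulf the expelled nuclei.

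A gene's level here is the log2 of the processed spot signal less the 75th percentile of all such values on the array, so 0 is the level of a probe at that percentile and 1 unit is a 2-fold difference in signal. A gene with several probes is given by its brightest. Signal depends on how well a probe binds its target, so the order of 2 genes is an order of probe signals and not of transcript amounts. Each level is a mean of 3 arrays ± SD unless values of single arrays are given in the order of replicates 1, 2 and 3.

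The arrays were of like quality. Between 65.5% and 66.3% of spots that were not controls were well above background, the 75th percentile of signal was 1499 to 1616, and none of the 282 to 286 negative control spots per array was well above background. Their median level was -7.41 to -7.33, which marks the floor of the scale. No spot was marked saturated, yet 189 genes had a signal of at least 40% of the saturation value and 639 of at least 20%, and the brightest spot of an array reached 70.9% to 73.0% of it. Whether signal is compressed near that end of the scale was not tested.

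Eif2s3y, Ddx3y and Xist set replicates 1 and 2 apart from their label. Eif2s3y, a translation factor gene of the Y chromosome, was at 5.12, 4.82 and -3.77, and Ddx3y, which codes for a helicase and is also Y-linked, was at 1.90, 0.88 and -7.38. Y-linked Uty was well above background only on replicate 1 (-2.24), and Y-linked Kdm5d was on no array. Xist, the RNA that coats the inactive X chromosome of females, was well above background only on replicate 3, with -5.59, -5.24 and -0.73. Eif2s3y was still well above background on replicate 3. The X-linked genes of the list did not order the arrays alike. Ddx3x was at 5.57, 4.41 and 5.30 and Eif2s3x at 4.80, 4.13 and 2.31. Kdm5c was at 1.66, 2.25 and 2.23 and Kdm6a at 1.42, -0.07 and 2.33. By Eif2s3y, Ddx3y and Xist, replicate 3 is the nearest to the label female. The share of genes above background and the signal shares of the globin, ribosomal and oxidative phosphorylation lists are therefore given below for each array. The list medians on replicate 3 alone were 7.05 for heme synthesis, 6.24 for the erythroid transcription factors, 6.67 for membrane and skeleton genes, 2.24 for histones and 2.43 for neutrophil genes.

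Of 19896 named genes, 14198 (71.4%) were well above background on all 3 arrays, 4221 (21.2%) had no probe well above background on any array, and 1477 lay between. On single arrays the share was 74.4%, 75.7% and 74.8%, so replicate 3 alone lay between the other two. The median level was 0.33 over the genes above background and -7.06 over those that were not, which is near the negative controls. At the limit, the lowest 5 genes that were above background on all arrays had levels of -5.39 to -5.17, and the highest 5 that were above it on 2 arrays reached -3.24 to -1.53. The latter group was bright on 2 arrays and not well above background on the remaining one.

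**Figure D1:**
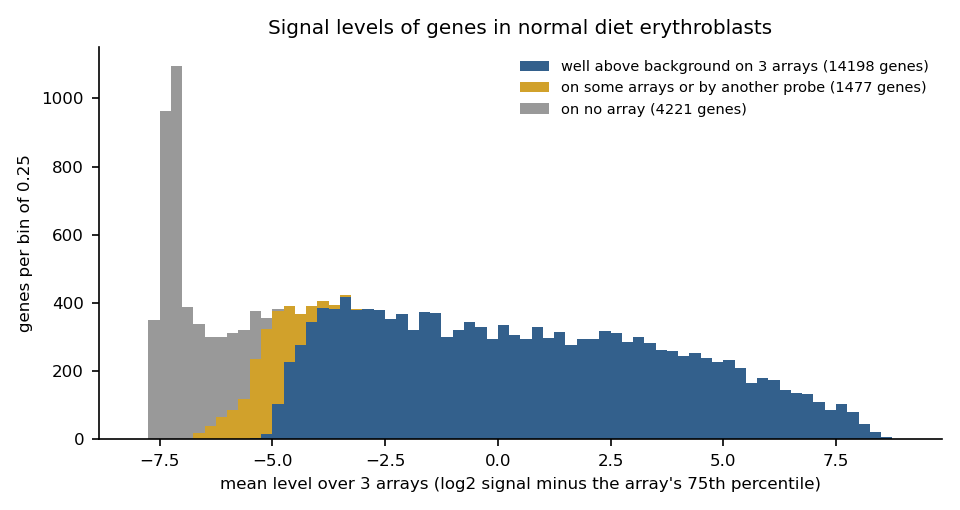
Histogram of the mean level of 19896 genes over the 3 normal diet arrays (log2 signal, with the array's 75th percentile at 0), in bins of 0.25 and stacked by whether the gene was well above background on 3 arrays, on some or by another probe, or on none. The 4221 genes on no array pile up near the level of the negative controls (-7.41 to -7.33), and the 14198 genes above background spread from -5.39 to 8.81.

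The promoters of 4 erythroid genes are shown because these genes mark the cells and stand among the bright probes of the data: 2 globins, the enzyme that starts heme synthesis, and the erythroid transcription factor Klf1. Each line gives the 200 bases before the RefSeq start of the gene on build GRCm38.p6, read 5′ to 3′ on the gene's own strand. Capitals mark matches, on either strand, to the letters read by GATA factors (AGATAA, in which the first letter may also be T and the last also G) or to the CACCC-type letters CCNCNCCC, in which N is any base and which Klf1 and related factors read.
Hba-a1, chr11:32283472-32283671, plus strand: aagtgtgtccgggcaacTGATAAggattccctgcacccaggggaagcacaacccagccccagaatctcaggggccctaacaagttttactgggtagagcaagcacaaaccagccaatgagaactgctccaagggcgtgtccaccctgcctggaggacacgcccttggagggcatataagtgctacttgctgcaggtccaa
Hbb-bt, chr7:103813924-103814123, minus strand: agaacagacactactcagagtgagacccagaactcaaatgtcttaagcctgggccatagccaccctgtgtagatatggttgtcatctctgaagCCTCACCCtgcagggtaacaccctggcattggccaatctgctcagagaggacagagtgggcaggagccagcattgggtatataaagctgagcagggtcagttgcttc
Alas2, chrX:150547217-150547416, plus strand: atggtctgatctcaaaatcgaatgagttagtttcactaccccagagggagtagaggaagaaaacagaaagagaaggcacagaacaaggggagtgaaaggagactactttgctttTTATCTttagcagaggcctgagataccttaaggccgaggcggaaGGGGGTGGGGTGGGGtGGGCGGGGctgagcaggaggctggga
Klf1, chr8:84901782-84901981, plus strand: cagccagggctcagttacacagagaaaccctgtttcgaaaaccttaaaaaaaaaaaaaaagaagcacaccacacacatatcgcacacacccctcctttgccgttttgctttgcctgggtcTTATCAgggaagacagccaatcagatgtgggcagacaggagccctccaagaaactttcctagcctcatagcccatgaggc

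The printed stretch of Hba-a1 holds 1 GATA match and no CACCC-type match, that of Hbb-bt holds 1 CACCC-type match and no GATA match, and that of Klf1 holds 1 GATA match. Alas2 holds 1 GATA match and 4 CACCC-type matches, 3 of which overlap. Such matches are common, so they describe letters and not binding. Over the 250 bases before each start, 21.3% of the windows of genes on the erythroid lists held a GATA match and 63.5% a CACCC-type match, against 20.4% and 61.3% for the 500 brightest genes, 19.95% and 58.9% for all genes above background, and 31.1% and 44.7% for genes above it on no array. Over all RefSeq windows the shares were 26.5% and 45.9%. The median GC content of those windows was 59.6% for the erythroid lists, 58.4% for the brightest genes, 58% for genes above background and 50% for genes on no array, against 52.4% over all windows. The CACCC-type letters are rich in C, and their share was higher in the sets with more GC. A TATA box (TATAAA or TATATA on the gene's strand) was found in 8.12% of the erythroid windows, 6.07% of those of the brightest genes and 17.6% of those of genes on no array.

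Among probes with a gene name, the brightest belonged to tubulin, adult globins and genes of the red cell's antioxidant, iron and membrane equipment, together with histones and ribosomal proteins. The 30 highest levels ran from 8.81 to 8.22, at signals of 49.1% to 72.2% of the saturation value. Tuba1b, an alpha tubulin gene, led at 8.70, 8.93 and 8.79. The adult alpha globin genes Hba-a2 and Hba-a1 came next, at 8.61, 8.73 and 8.67 and at 8.58, 8.75 and 8.64. Hbb-bt, an adult beta globin gene, had 8.62, 8.67 and 8.58, and its neighbour Hbb-b2 had 8.36, 8.45 and 8.42. The arrays of each of these genes lay within a range of 0.23 of each other. Alpha globin copies are nearly identical, as are many beta globin, tubulin and histone genes, so the signal of one copy cannot be told apart from that of another here.

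The rest of the 30 included Gpx1, a glutathione peroxidase that removes hydrogen peroxide, at 8.56 ± 0.04, and Glrx5, a mitochondrial glutaredoxin needed for iron-sulfur clusters, at 8.35 ± 0.05. Fth1, the heavy chain of the iron store ferritin, was at 8.33 ± 0.05 and Slc25a37 (mitoferrin 1), which carries iron into the mitochondria, at 8.28 ± 0.11. Rhd, the Rh blood group antigen, had 8.40 ± 0.10, Alas2, the first and rate-limiting enzyme of heme synthesis in red cells, 8.27 ± 0.14, and Urod, a later enzyme of that path, 8.26 ± 0.10. 5 histone H2A genes (H2ac19, H2ac12, H2ac15, H2ac10 and H2aj) lay between 8.30 and 8.45. General genes among them were the ubiquitin genes Ubb and Rps27a, Tpt1, the antizyme gene Oaz1, which limits polyamines, Tuba1c and the ribosomal stalk gene Rplp2. Their order is not settled: 27 of the 29 neighbouring pairs in it were closer than the larger SD of the pair.

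Several of the 30 rest on 1 of several probes. Elk1, a transcription factor of the growth factor response, was at 8.27 by one probe and at -7.16 by the other, and F10, coagulation factor X, at 8.24 and -1.92. The 3 probes of Sp110 gave 8.31, 3.77 and -1.42, those of Kctd14 8.23, 5.41 and 0.39, and those of Rps27a 8.27, 7.65 and -5.57. Slc25a37 itself had a second probe at 4.33. Among the 234 of the 500 brightest genes with several probes, 102 (43.6%) had probes over 4 units apart, against 1538 (34.0%) of the 4526 genes above background with several probes. The high rank of such a gene is that of 1 probe, and which probe reports the transcript was not tested.

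The 10 brightest genes gave 1.66 ± 0.11% of the signal summed over all named genes, the 100 brightest 12.5 ± 0.81%, the 500 brightest 42.2 ± 1.75% and the 1000 brightest 61.7 ± 1.76%. The 500 brightest are 2.51% of the genes. They reached down to a level of 6.90, the next gene lay at 6.89, and 243 of them were on at least 1 of the 57 gene lists used here, while 257 were on none. Of the 500, 53 were among the 191 measured genes of erythroid lists, 180 among the 638 of housekeeping lists and 1 on a list of other marrow cells.

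**Figure D2:**
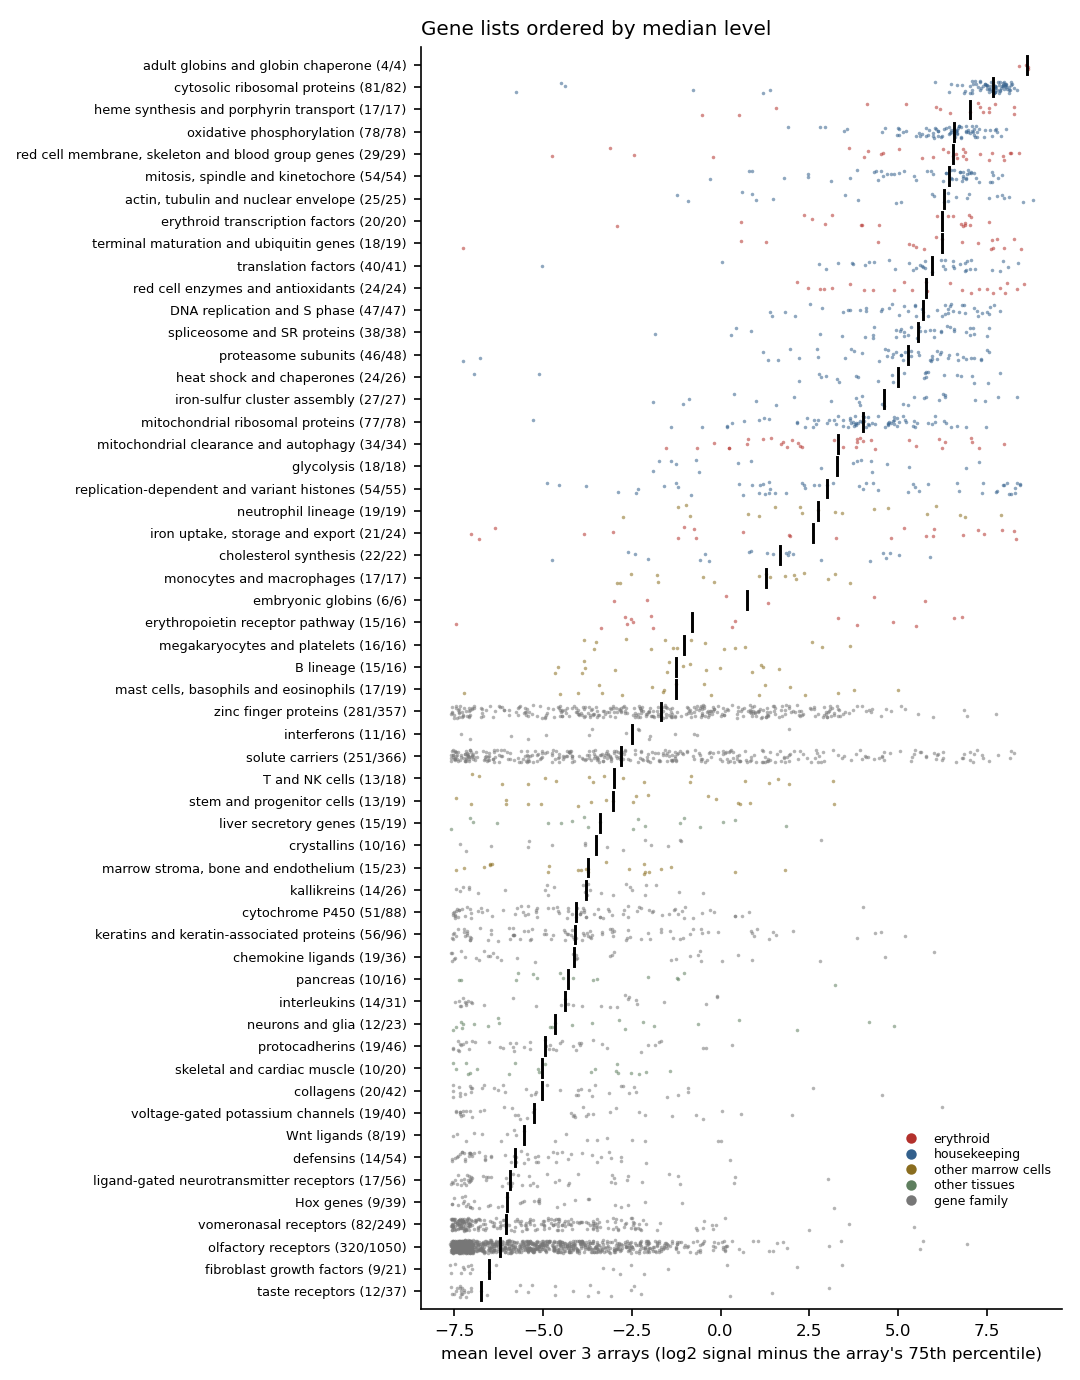
Mean level over the 3 arrays (log2 signal, with the array's 75th percentile at 0) of each member of 56 gene lists, with 1 point per gene, a black bar at the list's median and, after the name, the members well above background on all arrays out of those on the arrays. Adult globins (8.64) and cytosolic ribosomal proteins (7.69) have the highest medians, taste receptors and fibroblast growth factors (-6.77 and -6.53) are at the other end, and each colour is a class of lists.

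The defining genes of the erythroblast label that are given here were well above background on all arrays. Besides the globins and Alas2, Slc4a1, the anion exchanger band 3 of the red cell membrane, was at 8.08, 8.26 and 8.16. Gata1 was at 7.02, 7.06 and 6.97, Klf1 at 6.82, 6.75 and 6.92, and Epor, the erythropoietin receptor, at 6.82, 6.84 and 6.79. These varied little between the arrays, by 0.18 or less. Tfrc, the transferrin receptor, had 7.04, 6.15 and 7.33, and Ermap, an erythroid membrane protein, 6.73, 6.73 and 7.01. Replicate 2 was the lowest for Tfrc.

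Adult globins gave 0.67 ± 0.04% of the summed signal, with 0.64%, 0.71% and 0.68% on the 3 arrays. 4 of the 6 genes on the list had a named probe, and all were among the 500 brightest (all genes: 2.51%). The chaperone of free alpha globin was not analysed here. Signals near the top of the scale and 1 probe per gene limit this share, which is one of fluorescence and not of mRNA. Of the embryonic and minor globins, 6 of 6 with a probe were above background (all genes: 71.4%), with a median of 0.74. Hbq1b and Hbq1a, theta globin genes of the alpha cluster, were at 5.78 ± 0.15 and 4.34 ± 0.07. The embryonic beta-like genes Hbb-y and Hbb-bh1 were at 0.86, 1.32 and 1.79 and at 0.32, 0.67 and -0.49, and the embryonic alpha-like Hba-x at -3.42, -3.22 and -2.41.

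Heme synthesis was above background in all 17 genes listed, with 9 of them among the 500 brightest and a median of 7.02. Over all genes 71.4% were above background and 2.51% among the 500 brightest, with a median of -1.81. In the order of the path, enzymes after Alas2 included Alad (7.25 ± 0.16), Uros (7.31 ± 0.07), Urod, Cpox (7.57 ± 0.15), Ppox (6.19 ± 0.03) and Fech (7.72 ± 0.03), which inserts the iron, each of them above 6 on average. The carriers Slc25a38, which brings glycine into mitochondria (7.02 ± 0.03), Tmem14c (7.39 ± 0.25) and Abcb10 (7.57 ± 0.04) had like levels. Flvcr1, a heme exporter, was the dimmest of the 17 at -0.51, -0.24 and -0.80. Alas1, the housekeeping counterpart of Alas2 in other tissues, was outside the list, at 1.86, 2.55 and 1.79.

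Iron genes split into a bright and a dim part, with 21 of 24 above background (all genes: 71.4%), 5 among the 500 brightest (all genes: 2.51%) and a median of 2.61. The ferritin chains Fth1 and Ftl1 (7.92 ± 0.09), the iron chaperone Pcbp1 (7.42 ± 0.10) and Ncoa4, which delivers ferritin to the lysosome (7.27 ± 0.11), were among the 500 brightest with Slc25a37. Tfrc stood just outside them at 6.84 ± 0.62. Slc40a1, the iron exporter ferroportin, was at 6.29, 5.68 and 6.08, and Tfr2, the second transferrin receptor, at 5.15, 4.92 and 4.38. Erfe, the hormone erythroferrone that erythroblasts release to lower hepcidin, was well above background at -0.71, -0.78 and -0.58. The 3 genes on no array were the reductases Cybrd1 and Steap4 and the mitochondrial ferritin Ftmt, with means of -7.03 to -6.35.

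All 20 genes of the erythroid transcription factor list were above background (all genes: 71.4%), and 5 were among the 500 brightest (all genes: 2.51%). The list also holds Trim58, a gene of the terminal maturation and ubiquitin list that is not a transcription factor. The 5 were transcription regulators. These were the cell cycle factor E2f2 (7.57 ± 0.10), Klf3 (7.06 ± 0.06), the bridging factor Lmo2 (7.03 ± 0.12), Gata1 (7.02 ± 0.04) and Nfe2 (6.90 ± 0.08). Zfpm1, the Gata1 partner Fog1, had 6.89 ± 0.05 and lay just outside. Among the others, Tal1 was at 6.78 ± 0.12, Gfi1b, a repressor, at 6.09 ± 0.16, and Bcl11a and Sox6, repressors of embryonic globin genes, at 3.15 ± 0.33 and 3.97 ± 0.70. Foxo3 was the lowest at -2.91. Gata2, which erythroid cells lose as Gata1 rises, was at -3.88, -3.37 and -4.77, and Spi1 (PU.1), a factor of myeloid cells, was above background on no array.

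Membrane, skeleton and blood group genes were above background in 29 of 29 (all genes: 71.4%), with 10 among the 500 brightest (all genes: 2.51%) and a median of 6.55. Rhd, the water channel Aqp1 (8.19 ± 0.11), Slc4a1, the skeleton protein Epb41 (7.98 ± 0.24), Tspan33 (7.96 ± 0.12) and glycophorin C (Gypc, 7.65 ± 0.02) led. Beta spectrin, Sptb, a chain of the skeleton's main filament, by 1 probe, was at -5.08, -5.03 and -4.18, the lowest of the list. Whether that probe reports its transcript was not tested. Ank1, which ties spectrin to band 3, was at 4.43, 4.13 and 3.91.

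Of the erythropoietin receptor pathway, 15 of 16 genes were above background (all genes: 71.4%), none among the 500 brightest (all genes: 2.51%), with a median of -0.79 (all genes: -1.81). Epor, the survival gene Bcl2l1 (5.94, 6.92 and 6.86), the receptor's kinase Jak2 (5.70, 5.63 and 5.25) and Stat5b (4.90, 4.88 and 4.77) were the brightest, and the feedback inhibitor Cish was at 3.85 ± 0.21. Podxl, a surface sialomucin that erythropoietin can raise, was above background on no array. Kit, the stem cell factor receptor of earlier progenitors, was at -2.94, -1.73 and -2.71.

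Red cell enzymes and antioxidants were above background in 24 of 24 genes (all genes: 71.4%), with 9 among the 500 brightest (all genes: 2.51%) and a median of 5.80. Carbonic anhydrase 2 (Car2) was at 8.06 ± 0.06, the superoxide dismutase Sod1 at 8.02 ± 0.07, peroxiredoxin 2 (Prdx2) at 7.89 ± 0.08 and thioredoxin (Txn1) at 7.69 ± 0.14. Mitochondrial clearance and autophagy had all 34 genes above background, with a median of 3.32 and 4 among the 500 brightest. Bnip3l (Nix), the receptor by which maturing red cells dispose of mitochondria, was at 7.72, 8.12 and 8.13, and the autophagy kinase Ulk1 at 6.95, 7.26 and 7.06. The ubiquitin-like Gabarapl2 and Gabarap, which coat autophagosomes, were at 7.28 ± 0.33 and 7.06 ± 0.12. Of the 19 measured genes of terminal maturation and ubiquitin, 18 were above background, with a median of 6.25, and Ube2d1 was the exception.

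Protein synthesis and respiration gave the largest summed shares of signal among the lists. Such a share grows with the number of genes, here 82 and 78 against 4 adult globins with 0.67%. By median level the adult globins were higher, at 8.64 against 7.69 and 6.57. Cytosolic ribosomal proteins gave 6.79 ± 0.41% of the summed signal (6.77%, 7.22% and 6.39%). They were above background in 81 of 82 genes (all genes: 71.4%), and had 70 among the 500 brightest (all genes: 2.51%), with a median of 7.69. Oxidative phosphorylation genes, nuclear-encoded subunits of the respiratory chain and ATP synthase, gave 3.34 ± 0.24% (3.36%, 3.56% and 3.08%), with 78 of 78 above background, 25 among the 500 brightest and a median of 6.57. Cox6a1 (8.04 ± 0.09) and Atp5g3 (7.90 ± 0.04) led these. Replicate 3 gave the lowest share of both. Mitochondrial ribosomal proteins were above background in 77 of 78 genes at a median of 4.03, and 2 were among the 500 brightest. Glycolysis had 18 of 18 above background and a median of 3.28, with Hk1, the hexokinase of red cells, at 7.28 ± 0.06 and Gapdh at 6.91 ± 0.12.

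All 47 genes of DNA replication and S phase were above background (all genes: 71.4%), with a median of 5.72. So were all 54 of mitosis, with a median of 6.43 and 16 among the 500 brightest (all genes: 2.51%). Pcna, the replication clamp, was at 7.98, 7.96 and 7.73, the ribonucleotide reductase subunit Rrm2 at 7.71, 7.71 and 7.69, and the proliferation gene Mki67 at 7.56, 7.47 and 7.71. Birc5 (survivin), which acts at dividing chromosomes, was at 7.91, 7.93 and 7.93. Histone genes ran from -4.90 to 8.45, with 54 of 55 above background, 14 among the 500 brightest and a median of 3.00. Most such mRNAs lack a poly(A) tail, and how the amplification treats them was not tested.

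Several gene families and some lists of other tissues had a smaller share of members above background than all genes. Olfactory receptors were above background on all arrays in 320 of 1050 genes (30.5%, against 71.4% of all genes), the 320 had a median of -3.01, and 595 were on no array. Vomeronasal receptors had 82 of 249 (32.9%), taste receptors 12 of 37 (32.4%), ligand-gated neurotransmitter receptors 17 of 56 (30.4%), defensins 14 of 54 (25.9%) and Hox genes 9 of 39 (23.1%). Collagens had 20 of 42 above background, Wnt ligands 8 of 19, fibroblast growth factors 9 of 21, skeletal and cardiac muscle genes 10 of 20, and genes of neurons and glia 12 of 23. Other such lists were less dim. Crystallins and pancreas genes each had 10 of 16 (62.5%) above background and interferons 11 of 16 (68.8%). Liver secretory genes had 15 of 19 (78.9%), above the share of all genes. The families were thus dim but not uniformly at the floor.

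A few members of these families had bright probes on all arrays. Olfr215 was at 6.93, 6.97 and 6.94, the only olfactory receptor among the 500 brightest, followed by Olfr15 (5.60, 6.07 and 5.46) and Olfr214 (5.65, 5.83 and 5.43). The vomeronasal receptor Vmn2r55 was at 5.45 ± 0.27, the potassium channel Kcna4 at 6.24 ± 0.10, the keratin Krt16 at 5.19 ± 0.32 and the chemokine Ccl4 at 6.02 ± 0.10. Mbp, known for myelin, and Gfap, an astrocyte filament, were at 4.88 ± 0.08 and 4.17 ± 0.24. Except for Vmn2r55, Mbp and Gfap, these rest on 1 probe. Whether such probes read their own gene was not tested. Of the Hox genes, Hoxa9, known from myeloid progenitors, was the brightest at 3.20 ± 0.11, and 22 of the 39 were on no array.

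Lists of markers of other marrow cells ranged from fully above background to near or below the 71.4% of all genes. The neutrophil list was above background in 19 of 19 genes with a median of 2.74, macrophages in 17 of 17 with 1.29, and megakaryocytes and platelets in 16 of 16 with -1.02. B cell markers had 15 of 16 above background with a median of -1.25, mast cells, basophils and eosinophils 17 of 19 with -1.26, T and NK cells 13 of 18 with -3.01, stem and progenitor cells 13 of 19 with -3.02, and stroma, bone and endothelium 15 of 23 with -3.74. Over all genes the median was -1.81. The members on no array were Cd247, Ncr1 and Trat1 of T and NK cells, Ms4a2 of mast cells, Erg, Mecom, Spi1 and Tek of progenitors, and Cdh5, Col1a1, Emcn, Pdgfra, Pdgfrb and Tie1 of stroma and vessels. In such bulk samples, fewer cells of a type and less RNA per cell cannot be told apart.

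**Figure D3:**
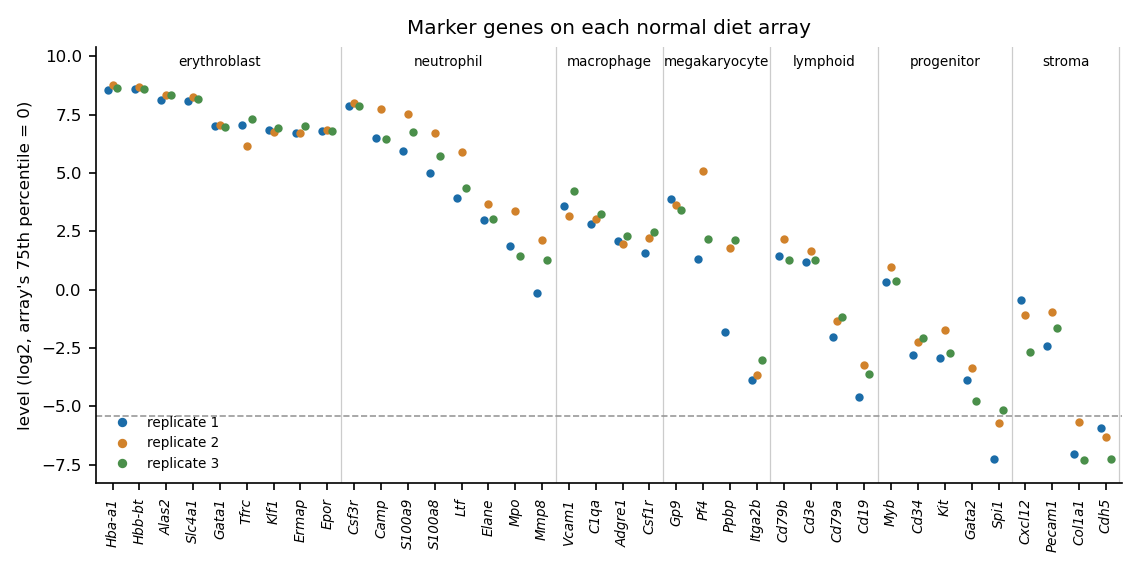
Level (log2 signal, with the array's 75th percentile at 0) of 38 marker genes on each of the 3 normal diet arrays, with 1 point per array and genes grouped by the cell type they mark; the dashed line is the lowest mean of a gene above background on all arrays (-5.39). The erythroblast markers lie between 6.15 (Tfrc, replicate 2) and 8.75 (Hba-a1, replicate 2), while most neutrophil markers and Pf4 are highest on replicate 2.

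By the range of its median deviations, the neutrophil list differed most between the arrays. S100a9 and S100a8, subunits of calprotectin, were at 5.96, 7.52 and 6.74 and at 5.02, 6.71 and 5.72. Camp, the granule peptide cathelicidin, was at 6.49, 7.72 and 6.45, and Ltf, lactoferrin of the secondary granules, at 3.91, 5.89 and 4.35. Replicate 2 was the highest for 18 of the 19 genes, against 34.1% of all genes above background. The median deviation of the list from each gene's own mean was -0.74, 0.90 and -0.19, so replicates 1 and 2 lay 1.65 apart. The list's summed signal was 0.22%, 0.47% and 0.27% of the total. Csf3r, the receptor for the neutrophil growth factor and the brightest member, varied little (7.87, 8.02 and 7.85). Primary granule genes of earlier neutrophil stages, Elane (2.98, 3.69 and 3.05) and Mpo (1.87, 3.39 and 1.46), were also highest on replicate 2.

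Megakaryocyte and platelet genes had median deviations of -0.46, 0.40 and 0.23, with replicate 1 the lowest for 11 of 16 genes, against 31.9% of all genes above background. Pf4 and Ppbp, chemokines of platelet granules, were at 1.33, 5.10 and 2.16 and at -1.82, 1.78 and 2.11, and Treml1, a platelet receptor, at -2.83, 0.58 and -0.22. Gp9, a subunit of the platelet receptor for von Willebrand factor, did not follow them (3.87, 3.65 and 3.42). Stem and progenitor genes were highest on replicate 2 in 9 of 13, against 34.1% of all genes above background, with deviations of -0.29, 0.44 and 0.01. Macrophage genes were highest on replicate 3 in 13 of 17, against 28.4% of all genes above background, with deviations of -0.14, -0.03 and 0.26. Vcam1, an adhesion molecule of the macrophages that nurse erythroblasts, was at 3.59, 3.14 and 4.25, and the complement gene C1qa at 2.83, 3.04 and 3.25. No marker list of another cell was highest on replicate 1 in most of its genes, stroma included. There replicate 1 was highest in 5 of 15, beside 37.4% of all genes above background.

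Agreement between the arrays was close across genes. Over the 14198 genes above background, Pearson's r was 0.982 for replicates 1 and 2, 0.988 for 1 and 3, and 0.985 for 2 and 3, and Spearman's rho was 0.980, 0.986 and 0.983; genes are not independent replicates, and the arrays share every probe. The median absolute difference was 0.344, 0.294 and 0.304, and 1610, 877 and 1301 genes differed by over 1. Of the 500 brightest genes of each array, 424 (84.8%) were common to all 3, with 458, 443 and 443 common to the pairs. Of the 30 brightest, 23 were common, and of the 1000 brightest, 870.

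**Figure D4:**
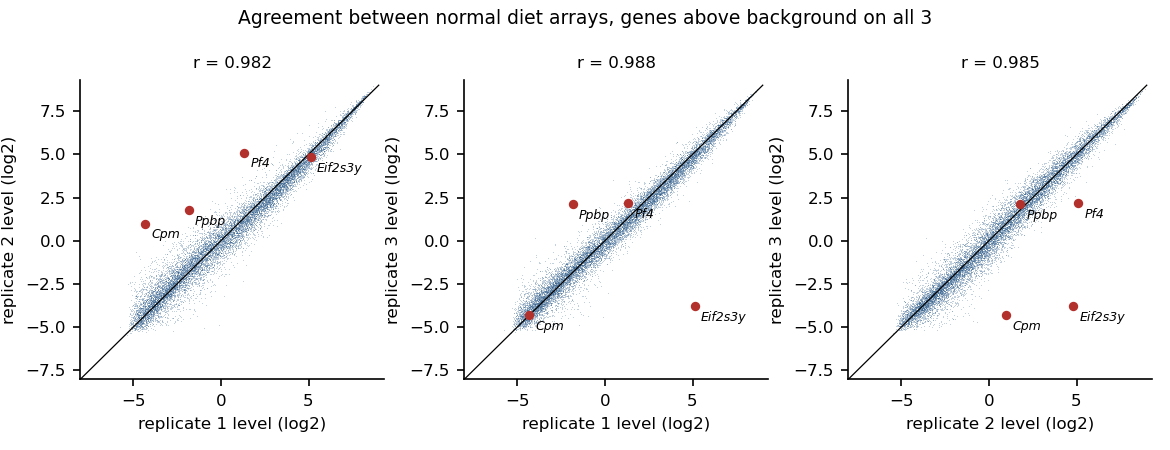
Level (log2 signal, with the array's 75th percentile at 0) of 14198 genes on 1 normal diet array against another, for the 3 pairs, with the line of equal levels. Most genes lie near the line (r of 0.982, 0.988 and 0.985), and Eif2s3y, Cpm, Pf4 and Ppbp, marked in red, are far from it in 2 of the 3 panels.

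The median SD of a gene over the arrays was 0.281. It was 0.147 in the brightest of 10 equal classes of level, 0.344 in the seventh and 0.248 in the dimmest, and 356 genes (2.51%) had an SD over 1. Spots of the same probe within an array share sample, amplification, labelling and hybridization. Their spread therefore holds no difference between arrays in any of these. The 280 probes that were spotted 10 times and above background had a median SD among spots of 0.140, 0.132 and 0.135, against 0.305 between the means of the arrays. The SD between arrays was the larger for 202 of them (72.1%). The former is a spread of single spots and the latter a spread of means over spots, so they are unlike measures. How much of the spread between arrays comes from the samples was not tested.

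By list, the median SD was 0.053 for the adult globins, 0.129 for erythroid transcription factors, 0.150 for heme synthesis and 0.115 for cytosolic ribosomal proteins. It was 0.919 for the neutrophil list, 0.572 for megakaryocytes and platelets and 0.470 for cholesterol synthesis. The former lists are also the brighter ones, and the part of brightness in this order was not tested.

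Other lists also leaned to 1 array, by less than the neutrophil genes. DNA replication and S phase genes were highest on replicate 1 in 42 of 47, against 37.4% of all genes above background, with median deviations of 0.22, -0.18 and -0.04. Mcm2, a subunit of the replicative helicase, was at 6.61, 6.13 and 5.98. Mitosis genes were lowest on replicate 2 in 38 of 54, against 35.6% of all genes above background. Cholesterol synthesis genes were highest on replicate 1 in 17 of 22, with deviations of 0.45, -0.17 and -0.24. Idi1, an isomerase of the path, was at 5.52, 4.68 and 4.87, and Sqle, squalene epoxidase, at 4.82, 4.06 and 3.79. Replicate 1, which was high for the S phase and cholesterol lists, was low for the white cell lists. For the mitosis list it was highest in 20 of 54 genes, beside 37.4% of all genes above background, and replicate 3 was highest in 27.

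Mitochondrial ribosomal proteins were lowest on replicate 3 in 56 of 77, against 32.5% of all genes above background, with deviations of 0.18, 0.09 and -0.25. Cytosolic ribosomal proteins were lowest there in 66 of 81 (deviations of 0.03, 0.08 and -0.09), and oxidative phosphorylation genes in 59 of 78 (0.05, 0.08 and -0.13). Scaling each array to the 75th percentile of its probes above background moved the median deviation of all genes from 0.03, 0.00 and 0.00 to -0.06, 0.11 and -0.02. That shift is common to all genes of an array, and with it the sign on replicate 1 turned for the cytosolic ribosomal and oxidative phosphorylation lists (-0.05 and -0.04) as it did for all genes. Replicate 3 was then the lowest for 55 of 81 and 53 of 78, beside 4813 of all 14198 genes above background. Under the same scaling replicate 1 was the highest for 31 of 47 S phase genes, beside 3535 of the 14198, and replicate 2 the lowest for 25 of 54 mitosis genes, beside 3388. Under quantile normalization, which gives equal values to equal ranks, the adult globin deviations of -0.05, 0.05 and -0.01 became 0.00, -0.01 and 0.01. The macrophage deviation on replicate 2 turned to 0.06 under quantile normalization and to 0.07 under the percentile scaling. Replicate 2 was the highest for all 19 neutrophil genes under both, beside 5296 and 7116 of the 14198 genes.

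**Figure D5:**
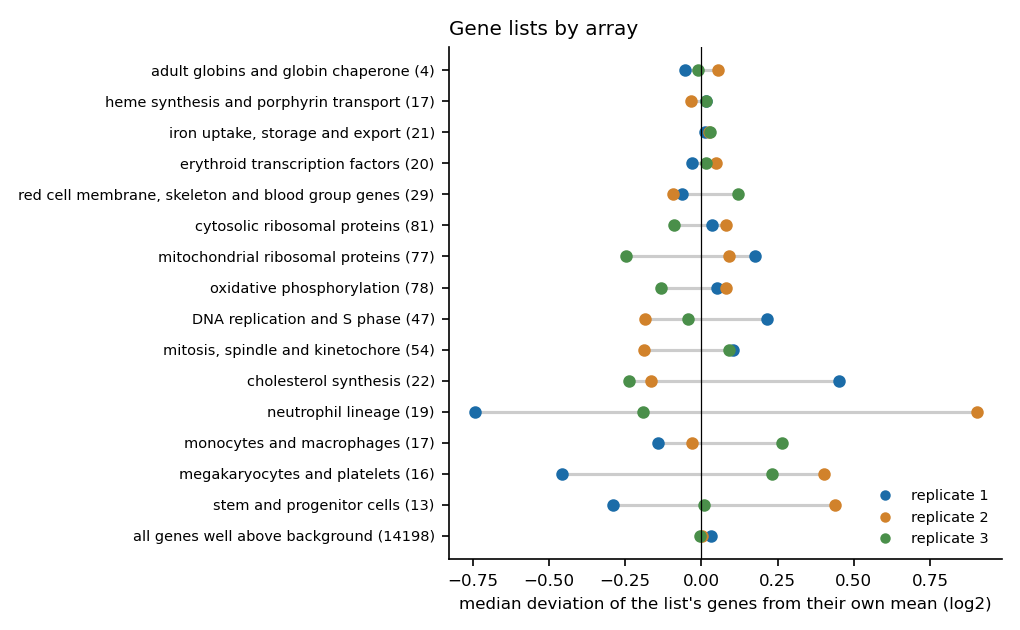
Median over the genes of a list of the deviation on each array from the gene's own mean (log2), for 15 lists and all genes above background, with the number of genes after the name and 1 point per array. The neutrophil list is widest, from -0.74 on replicate 1 to 0.90 on replicate 2, and the 5 erythroid lists shown stay within 0.12 of 0 in this scaling.

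Single genes that differed most between the arrays were in part the sex-linked and platelet genes above. Among the genes above background on all arrays, 286 had a range over 2 and 24 over 3. For each of the 286, the array farthest from the gene's median was taken. It was a high array in 30, 102 and 25 genes for replicates 1, 2 and 3, and a low one in 59, 50 and 20. Of all genes above background, 34.1% were highest on replicate 2 and 31.9% lowest on replicate 1. Those shares count the highest or lowest array of every gene, so they are unlike measures. Among the widest after Eif2s3y were Cpm, a carboxypeptidase of the membrane (-4.30, 0.99 and -4.29), Dnajc27 (-0.13, -4.89 and -4.44), Sstr2, a somatostatin receptor (-0.94, -5.06 and -4.37), and Thbs1, thrombospondin of platelets (-3.96, -3.58 and 0.16). In each, 1 array stood apart while the other two lay within 1 unit of each other, and each rests on 1 probe. Among genes above background on at least 1 array, 70 had a range over 5, and the widest besides the Y-linked ones was Jchain, the joining chain of antibodies from plasma cells, at -6.31, -1.41 and 1.66.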

How the data were processed

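The authors deposited 1 scanner file per array, whose spot intensities are background-subtracted and not scaled between arrays, as Agilent Feature Extraction 10.7.3.1 wrote them per the file headers. The series' deposited log2 table is centred per probe and served as an alternative only. Its deviations had r = 0.999 and slope 0.999 against the scanner values, its columns had medians of 0, and what the authors did before centring is not given in the sources used here. Its 6 columns of other groups were not used.

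Control spots and outlier spots were left out, log2 intensity minus the array's 75th percentile was averaged over a probe's spots, and a probe was well above background where over 0.5 of its spots were. RefSeq accessions named 26413 of 55681 probes through a gene table of GRCm38.p6, whose coordinates were used only for the promoter windows; 564 probes lacked a usable spot on some array. The brightest probe stood for its gene.

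Values are descriptions of 1 group, with no test. The precision is limited by the number of arrays. The gene lists and members were chosen with earlier results of these data known, and the patterns for histones and defensins were corrected after the files were read. Named genes are the 30 brightest, up to 6 brightest members of each list, erythroid and marrow list members not above background, the 15 with the largest range, the markers and the sex-linked genes. Further heme, iron, membrane and transcription factor genes, Mcm2, Alas1, Sptb and the other marker genes outside these were chosen after their values were seen. Some genes the rule would name are not reported here. Python 3.11.15, pandas 2.3.3, R 4.3.3 and limma 3.58.1 (normexp) were used. The steps from spot signal to gene level, SD and highest array were tested on simulated data, and the detection calls were not. Alternatives were other scalings, normexp (on the median spot signal, chosen after seeing the data, as these files hold no mean signal), the mean over probes, outlier spots kept, a stricter detection rule, no filter, other list sizes and each replicate left out.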

Additional observations from a re-analysis of the deposited data

Results flagged for a closer look

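Probes without a gene name carried signal that no value of the report uses. Of the 28907 such probes with a value on every array, 53.5% were well above background on all 3, while no negative control spot was. They made up 240 of the 500 brightest probes, of which 176 carry a RefSeq accession that the gene table does not list, 46 an Ensembl transcript, 11 a genome position and 7 another identifier. Groups of 3 arrays were too small to look for single outlying values by the gap to their neighbours.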

How the results depend on the processing

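No paired analysis was possible because a single group was described and nothing was compared between groups. The share of signal from adult globins was 0.599% under normexp and 0.888% when the probes of a gene were averaged, which lowers genes with several probes and leaves those with 1; that from oxidative phosphorylation was 3.95% with the latter, and the cause of the other moves was not tested. The median SD was 0.242 under normexp. The share of brightest genes common to all arrays was 75% for lists of 100 and 87% for lists of 1000. Leaving out each replicate in turn gave 72.1% to 73.1% of genes above background, 22.1% to 22.8% on no array, a median SD of 0.208 to 0.243 and 88.6% to 91.4% of the 500 brightest in common, on 2 arrays in place of 3. It gave 0.656% to 0.694% of signal for adult globins, 6.57% to 7.00% for cytosolic ribosomal proteins, 3.22% to 3.46% for oxidative phosphorylation and a mean correlation of 0.982 to 0.988. The other settings moved these values by less than the spread between arrays. The 75th percentile of probes above background lowers each of the 57 list medians by 2.10, a shift of the zero point, and quantile normalization raises each, by 0.12 at the median. Normexp moved 34 list medians beyond the spread and the mean over probes 27. The deposited table, centred per probe, gave a median SD of 0.281 but could give no correlation of levels. Signal near the floor limits the dim genes, and signal at a large part of the saturation value limits the brightest.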
